A study of Mus musculus with 89 samples.

Results

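Microexons are here the skipped exons no longer than 27 nt, and they accounted for 718 of 27900 exon skipping events (2.57%) in the first of 2 deposited splicing tables of mouse nucleus accumbens RNA and for 350 of 5608 events (6.24%) in the second. They were chosen by exon length alone, as the end minus the start of the skipped exon, in each table separately, and not by their inclusion. The 718 events were 625 distinct exons of 515 genes and the 350 were 339 distinct exons of 286 genes. An event is a skipped exon with its neighbouring exons, so 1 exon can stand in several events.

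The series of 89 samples in 21 groups studied the histone mark H3K36me3 and alternative splicing in the nucleus accumbens, a reward region of the brain. All its nucleus accumbens RNA came from wild type C57BL/6 mice of 8 weeks. In the HSV experiment, herpes simplex virus carried GFP, Set2, the enzyme that places H3K36me3, or Set2 with the substitution R195G, with 3 libraries each per the labels. In the dCas9-SET2 experiment, a catalytically dead Cas9 fused to SET2 was delivered with a guide to Srsf11 or a non-targeting guide, with 16 runs each, 4 runs for each of 4 sample names. The HSV table compares 2 libraries (set 1) with 3 others (set 2), and the dCas9-SET2 table compares 16 runs (set 1) with 16 others (set 2). No column names a condition, so no virus or guide was assigned to a set, and differences are set 2 minus set 1. Nothing in the labels says that the libraries came from separate animals, so p-values rest on the spread of these libraries, which may be technical.

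Microexons encode a few amino acids and in neurons are mostly of a length that keeps the reading frame, so that including one adds a short stretch to the protein, often at a surface that binds other proteins. Their recognition in neurons depends on the splicing activators Srrm4 (nSR100) and Srrm3, which act with Srsf11 and Rnps1 just upstream of the exon, while Ptbp1 represses many of them. Srsf11, the gene targeted in the dCas9-SET2 experiment, is thus itself a known microexon factor. Neuronal microexons are concentrated in genes of synaptic vesicle traffic, cell adhesion, the cytoskeleton and motors.

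In both tables the lengths of microexons stood in steps of 3. In the HSV table, 577 of 718 events (80.4%) had a length divisible by 3, against 50.8% of exons of 28 to 60 nt, 42.8% of exons of 61 nt to under 300 nt and 41.1% of exons of 300 nt or more. Among those of 15 nt or less the share was 89.3%. In the dCas9-SET2 table, 315 of 350 (90.0%) were divisible by 3, against 66.3% of exons of 28 to 60 nt and 49.7% of those of 61 nt to under 300 nt. The steps continued past the upper limit, where the HSV table listed 103 distinct exons of 27 nt, 23 of 28 nt, 21 of 29 nt and 85 of 30 nt. Events with 20 reads or more had a median inclusion of 0.834 at 27 nt and 0.991 at 28 nt, just inside and just outside the limit. At these lengths the medians went with divisibility by 3 on both sides, at 0.990 for 26 nt inside it and 0.945 for 30 nt and 0.768 for 33 nt outside it. Other lengths not divisible by 3 were lower: 0.939 at 25 nt, 0.945 at 34 nt, and 0.119 at 13 nt and 0.065 at 14 nt, from 4 and 2 events. In the dCas9-SET2 table the medians were 0.501 at 27 nt and 0.589 at 28 nt, from 51 and 4 events.

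**Figure D1:**
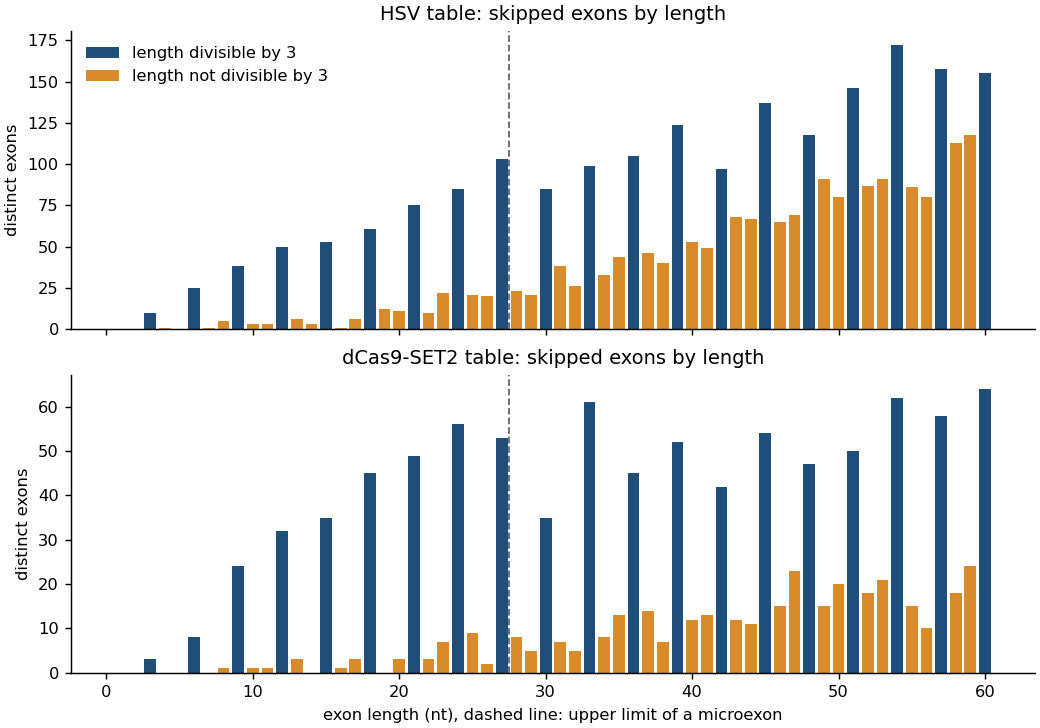
Number of distinct skipped exons (y axis) by exon length in nt (x axis) in the HSV table (top) and the dCas9-SET2 table (bottom), coloured by whether the length is divisible by 3. The dashed line marks the limit of 27 nt, and lengths divisible by 3 stand above their neighbours on both sides of it.

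The shortest members were exons of 3 nt, which add a single amino acid. There were 10 such events in 10 genes in the HSV table and 3 such events in the dCas9-SET2 table. The 3-nt exon of Clasp2, a microtubule plus-end protein, was included at 0.75 and 0.781 in set 1 and at 0.715, 0.728 and 0.679 in set 2 of the HSV table. Its libraries did not overlap between the sets, but the difference of -0.058 did not pass the test described below (adjusted p = 0.637, limma). In Mon2, a Golgi trafficking protein, the 3-nt exon varied more within a set than between sets, at 0.667 and 0.506 against 0.556, 0.828 and 0.395. Map4k5, a kinase of the stress pathway, had 0.75 and 0.828 against 0.866, 0.713 and 0.828. By contrast, those of Clasp1, the sister gene of Clasp2, and of Itih3, a hyaluronan-binding serum protein, were included at 0.979 or more in every library.

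Several genes carried a series of microexons. More than 1 was listed for 77 genes of the HSV table, and 3 or more for 21. Ptprd, a receptor phosphatase of synapse formation, and Clasp2 had 6 each, all divisible by 3. Cadps, a priming factor of dense-core vesicles, the dynactin gene Dctn1, the cytoskeletal linker gene Macf1 and the postsynaptic scaffold gene Shank2 had 4 each, also all divisible by 3. Sgip1 had 4 too, of which 2 were divisible by 3. At the other end stood Tnnt1, a troponin of muscle, with exons of 16, 19 and 22 nt, none divisible by 3, which overlap each other and had 2.2 to 2.4 reads per library. The dCas9-SET2 table also listed 6 microexons of Ptprd. These genes were named for their number of microexons, after the counts were seen.

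Inclusion of microexons was more often intermediate than that of longer exons. The inclusion level (PSI) is the fraction of transcripts with the exon, estimated from inclusion and skipping reads over their form lengths. In the HSV table, 560 microexon events had 20 reads per library or more. Of these, 270 (48.2%) had a mean inclusion of 0.1 to 0.9, 54 (9.64%) were below 0.1 and 236 (42.1%) above 0.9. The share at 0.1 to 0.9 was 24.3% for exons of 28 to 60 nt and 13.8% for exons of 61 nt to under 300 nt. In this table the level differed by reading frame: microexons divisible by 3 had a median inclusion of 0.803 (n = 464) and those not divisible by 3 of 0.978 (n = 96), where 19.8% were at 0.1 to 0.9. Exons of 28 to 60 nt had the same order, with medians of 0.953 and 0.984 and shares at 0.1 to 0.9 of 31.9% and 15.8%. Among exons of 61 nt to under 300 nt the corresponding medians were 0.987 and 0.989. These shares are descriptions over events, which share genes and libraries.

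The dCas9-SET2 table showed less contrast between length classes. Of its 305 microexons with 20 reads or more in each set, 220 (72.1%) were at 0.1 to 0.9, against 67.7% of exons of 28 to 60 nt and 58.9% of exons of 61 nt to under 300 nt. The medians were 0.564, 0.554 and 0.611 in that order. By reading frame the order was opposite to the HSV table: the median was 0.581 for microexons divisible by 3 (n = 278, 71.6% at 0.1 to 0.9) and 0.418 for the others (n = 27, 77.8%). This table lists fewer events and far fewer that are nearly always included, in every length class: 55 of the 305 microexons were above 0.9, against 236 of 560 in the HSV table.

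**Figure D2:**
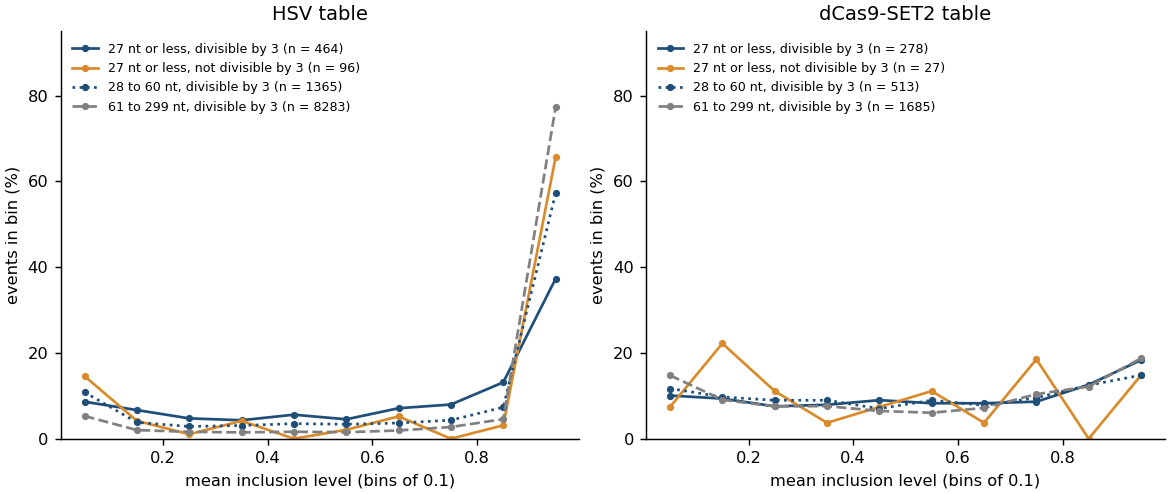
Share of events in percent (y axis) by mean inclusion level in bins of 0.1 (x axis) in the HSV table (left) and the dCas9-SET2 table (right), for events with 20 reads or more, with n in the legend. In the HSV table, microexons divisible by 3 have the lowest share in the top bin of the 4 classes drawn, while those not divisible by 3 lie closer to longer exons.

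Microexons with many reads covered the whole range of inclusion. The deepest was the 9-nt exon of Psap, the prosaposin precursor of lysosomal activators, at 3735 reads per library (chromosome 10, 59760285 to 59760293 as the HSV table gives it). It was included at 0.736 and 0.522 in set 1 and at 0.605, 0.587 and 0.584 in set 2. The 2 libraries of set 1 lay on either side of set 2, and no change was called (adjusted p = 0.737, limma). Leaving out 1 of the 2 decided its sign: without the second the logit difference was -0.65 (adjusted p = 3.75e-05), and without the first 0.28 (adjusted p = 0.0504).

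Endocytic genes had microexons from mostly skipped to nearly always included. Dnm1, a dynamin that cuts vesicles from the membrane, included its 12-nt exon at 0.996 or more in each library, and the 6-nt exon of Ap2m1, a subunit of the clathrin adaptor, at 0.976 to 0.993. The 21-nt exon of Cltc, the clathrin heavy chain, ranged from 0.163 to 0.187. In Snap91, a clathrin assembly protein, a 15-nt exon was at 0.881 to 0.975, and in its relative Picalm a 24-nt exon at 0.548 to 0.703. The 9-nt exon of Ap1s2, an adaptor subunit of the Golgi and endosomes, was at 0.960 to 0.977. None of these 6 was called, and each gene's sets overlapped except for Ap1s2, whose highest value in set 2 (0.972) lay just under the lowest in set 1 (0.974).

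Motor and cytoskeleton genes were spread likewise. Kif1a, the axonal kinesin of synaptic vesicle precursors, had a first 27-nt exon at 0.487 to 0.578 and a 24-nt exon at 0.152 to 0.348. Another 27-nt exon of Kif1a, whose skipping reads are the same as those of the 24-nt exon, was at 0.164 to 0.307. A 27-nt exon of its relative Kif1b was nearly silent, at 0.002 to 0.012. Dctn1, a dynactin subunit that tethers dynein to its cargo, had a 15-nt exon at 0.874 to 0.930. The 15-nt exon of Sptan1, the spectrin alpha chain under the membrane, was at 0.983 to 1.000. A 27-nt exon of Git1, an Arf GTPase-activating scaffold, stood at 0.861 and 0.809 against 0.808, 0.766 and 0.771, so its sets did not overlap (adjusted p = 0.452, limma).

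Among the other deep members, nearly full inclusion was seen in the 18-nt exon of Nrgn, a calmodulin-binding protein of dendrites (0.996 or more), and the 23-nt exon of Adcy5, the striatal adenylyl cyclase (0.997 or more). Uqcrh, a subunit of respiratory complex III, had a 21-nt exon at 0.999 or more in its deeper event. The remaining ones were included less fully. An 18-nt exon of Atp6v0a1, a proton pump subunit, was at 0.906 to 0.949, a 27-nt exon of Ahi1, a protein of the primary cilium, at 0.778 to 0.862, and a 15-nt exon of Ergic3, which cycles between ER and Golgi, at 0.570 to 0.678. Sh3glb2, an endophilin-like protein, had a 15-nt exon at 0.875 to 0.952. None of these 7 was called, with those of Adcy5 and Uqcrh too rarely skipped to be tested.

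By function, the gene lists used here overlap, so 1 microexon can stand in several. Over all genes, 5.40% of those in the HSV table and 8.33% of those in the dCas9-SET2 table had a microexon. Of 78 adhesion and axon guidance genes in the HSV table, 28 (35.9%) had one, with 64 microexon events, all divisible by 3, and a median inclusion of 0.677. Presynaptic and endocytic genes followed with 31 of 88 (35.2%, median inclusion 0.874), microtubule and motor genes with 24 of 73 (32.9%, 0.691), channels, pumps and transporters with 21 of 74 (28.4%, 0.936) and actin and small GTPase genes with 39 of 143 (27.3%, 0.854). The share was 20.7% for kinases and signalling (median inclusion 0.873), 13.6% for the postsynapse (0.888), 13.0% for trafficking and ubiquitin genes (0.685), 11.7% for chromatin and transcription (0.833) and, with 13 of 118, lowest for RNA-binding genes (0.722).

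Microexons of genes in none of the lists were less often divisible by 3. There were 381 of them in 309 genes, and 69.8% were divisible by 3, against 92.3% of the 337 in listed genes. Among RNA-binding genes 12 of 18 were divisible by 3 (66.7%). The lists include that of genes with known neuronal microexons. It held 178 events in 91 genes, of which 98.9% were divisible by 3, with a median inclusion of 0.726. That list was drawn up from knowledge of neuronal microexons, so its frame is no separate evidence. The same holds for its part in the 92.3% of listed genes. Longer exons of the 132 genes of that list in the table had a median inclusion of 0.982.

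Flanking introns of microexons had shorter medians than those of exons over 27 nt. In the HSV table they were 1784 nt upstream and 1584 nt downstream, against 2160 and 2005 nt. Exons of 28 to 60 nt were closer, at 1855 and 1780 nt. In the dCas9-SET2 table they were 1628 and 1527 nt for microexons, against 1870 and 1933 nt for exons over 27 nt. There exons of 28 to 60 nt had 1825 and 2004 nt. The difference was not tested. Of the 718 microexon events, 76 (10.6%) overlapped another listed exon with other ends, so that they share sequence with it. Of these 64.5% were divisible by 3, against 82.2% of the others.

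Between the sets of the HSV table, 14 microexons changed, in 14 genes: 10 with lower and 4 with higher inclusion in set 2. Each was divisible by 3, as were 363 of the 404 microexons tested (89.9%). The test was limma on the logit of inclusion with weights from the reads. Events entered with at least 20 reads a library on average, and at least 10 in the less common form, and p-values were adjusted by Benjamini-Hochberg over all 7754 of them. Of the microexons 404 entered it (56.3%). Of the rest, 158 had fewer reads and 156 had too few reads of the rarer form, 128 of the latter with inclusion above 0.9. The 14 are 3.47% of the 404, and over all events tested 153 (1.97%) were called, 0.877% higher and 1.1% lower. Among exons of 28 to 60 nt it was 4.20%, and among tested events at inclusion of 0.1 to 0.9 the share was 5.19% for microexons and 6.35% for exons of 28 to 60 nt. No set of events was tested against another.

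The 14 calls varied with the weights and with single libraries. Without each library in turn, the number of the 14 still called was 3 (Cyld, Nbea and Nrxn3) and 6 (Cyld, Kif1a, Mink1, Nnat, Sbf1 and Supt5) without the first and the second of set 1. Without the first of set 2 it was 1 (Nnat), without the second 1 (Nrxn3) and without the last 0, where 70 of the 404 were at unadjusted p below 0.05 in limma. Of all 7754 events, 50, 43 and 42 were called in these fits of set 2, against 153 with every library. With no weights, 0 of 404 were called, with 46 at unadjusted p below 0.05 in limma, and 0 of all 7754 events were called.

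The largest falls were in Osbpl6, a lipid transfer protein of the oxysterol-binding family, and Rapgef6, an activator of the small GTPase Rap. The 24-nt exon of Osbpl6 (chromosome 2, 76407077 to 76407100) was included at 0.760 and 0.801 in set 1 and at 0.242, 0.381 and 0.435 in set 2. Every library of set 2 lay below set 1, by -0.428 on average (logit difference -1.78, SE 0.44, adjusted p = 0.0411, limma), with 40.4 reads per library. The 15-nt exon of Rapgef6 (chromosome 11, 54465251 to 54465265) had 0.898 and 0.864 against 0.356, 0.548 and 0.548, again with no overlap (logit difference -2.08, SE 0.50, adjusted p = 0.0340, limma). It had the fewest reads of the 14, 31.6 per library. Without single libraries the adjusted p was 0.124 to 0.205 for Osbpl6 and 0.0980 to 0.332 for Rapgef6 (limma).

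Nbea, Itsn1 and Nrxn3 were among the 10 microexons with lower inclusion in set 2. Nbea, which sorts receptors to synapses, had a 9-nt exon (chromosome 3, 55797970 to 55797978) at 0.792 and 0.824 against 0.552, 0.548 and 0.450, a logit difference of -1.35 (SE 0.26, adjusted p = 0.00606, limma). In Itsn1, a scaffold of endocytosis, a 15-nt exon (chromosome 16, 91842873 to 91842887) fell from 0.585 and 0.668 to 0.262, 0.423 and 0.339 (logit difference -1.23, SE 0.30, adjusted p = 0.0380). Nrxn3, a presynaptic adhesion protein, had a 27-nt exon (chromosome 12, 90592897 to 90592923) at 0.970 and 0.983 against 0.786, 0.897 and 0.757 (logit difference -2.18, SE 0.39, adjusted p = 0.00368). The sets did not overlap in any of the 3. Over the fits without 1 library, the adjusted p ranged from 0.0318 to 0.111 for Nbea, 0.108 to 0.238 for Itsn1 and 0.0157 to 0.124 for Nrxn3 (limma).

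The fall in Kif1a concerned its 24-nt exon (chromosome 1, 94923409 to 94923432), at 0.348 and 0.229 against 0.195, 0.152 and 0.160 (logit difference -0.67, SE 0.16, adjusted p = 0.0371, limma). The second library of set 1 lay nearer to set 2 than to the first. Without the first the logit difference was -0.372, and without the second -0.951. Neither of its 27-nt exons was called (adjusted p = 0.713 and 0.450, limma). The 24-nt exon of Mink1, a kinase of the cytoskeleton and stress pathways (chromosome 11, 70422910 to 70422933), had 0.942 and 0.923 against 0.870, 0.873 and 0.833 (adjusted p = 0.0311). Over the fits without 1 library the adjusted p was 0.0124 to 0.576 for Kif1a and 0.0241 to 0.267 for Mink1 (limma).

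The remaining falls were in Cyld, Supt5 and Vps29. Cyld, a deubiquitinase of NF-kappaB signalling, had a 9-nt exon (chromosome 8, 91242189 to 91242197) at 0.958 and 0.916 against 0.746, 0.763 and 0.791 (logit difference -1.59, SE 0.27, adjusted p = 0.00178, limma). Supt5, a transcription elongation factor, had a 12-nt exon (chromosome 7, 29115037 to 29115048) at 0.801 and 0.766 against 0.525, 0.538 and 0.605 (adjusted p = 0.00797). Vps29, a subunit of the retromer that recycles endosomal cargo, had a 12-nt exon (chromosome 5, 122806803 to 122806814) at 0.142 and 0.168 against 0.061, 0.071 and 0.077 (adjusted p = 0.0371). Set 2 lay below set 1 in all 3. Without single libraries the adjusted p was 0.000296 to 0.0910 for Cyld, 0.0241 to 0.124 for Supt5 and 0.124 to 0.223 for Vps29 (limma).

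The 4 rises began at low inclusion. Aifm3, a mitochondrial protein related to apoptosis-inducing factor, had a 21-nt exon (chromosome 16, 17506992 to 17507012) at 0.207 and 0.191 against 0.462, 0.556 and 0.528 (logit difference 1.42, SE 0.32, adjusted p = 0.0190, limma). In Mapk8ip3, which links kinesin cargo to JNK kinases, a 24-nt exon (chromosome 17, 25057417 to 25057440) had 0.092 and 0.081 against 0.201, 0.208 and 0.186 (adjusted p = 0.0187). An 18-nt exon of the same gene stood at 0.830 to 0.906 and was not called (adjusted p = 0.917). In Sbf1, a myotubularin-like phosphatase relative, a 24-nt exon (chromosome 15, 89137603 to 89137626) went up from 0.027 and 0.067 to 0.131, 0.176 and 0.161 (adjusted p = 0.0483).

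The fourth was the 27-nt exon of Nnat, neuronatin, a small ER membrane protein (chromosome 2, 157386949 to 157386975), at 0.086 and 0.118 against 0.181, 0.193 and 0.213 (logit difference 0.76, SE 0.12, adjusted p = 0.00108, limma). It had 1353 reads per library, the most of the 14, and overlaps 2 other listed exons. Every library of set 2 was above set 1 in all 4 genes. Without single libraries the adjusted p was 0.0874 to 0.152 for Aifm3, 0.0825 to 0.137 for Mapk8ip3, 0.0233 to 0.366 for Sbf1 and 0.000995 to 0.0593 for Nnat (limma).

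**Figure D3:**
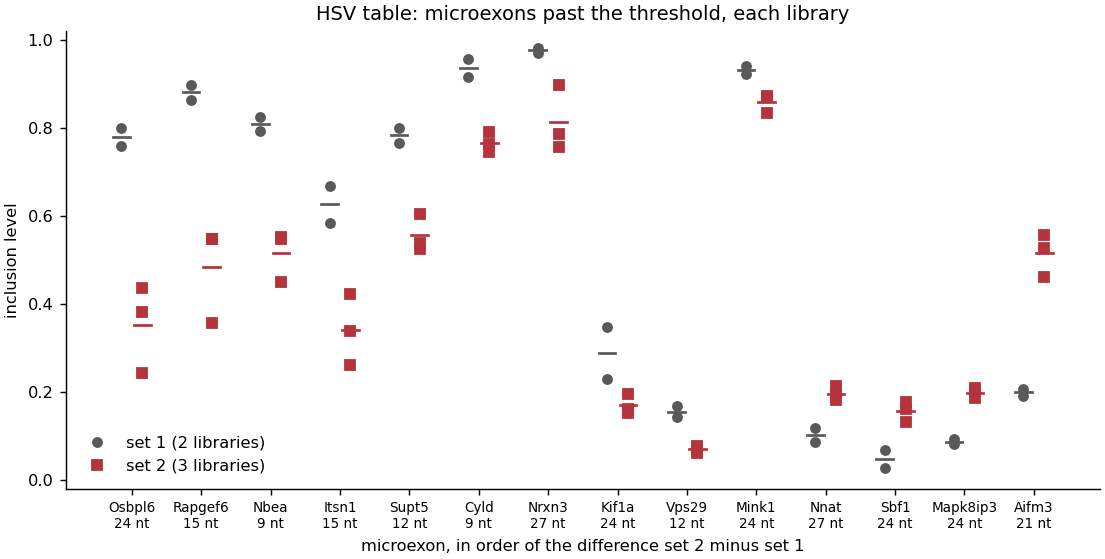
Inclusion level (y axis) of the 14 microexons called in the HSV table (x axis, by gene and exon length), with a grey circle for each of the 2 libraries of set 1, a red square for each of the 3 libraries of set 2 and a short line at each set's mean. The squares lie below the circles in the first 10 and above them in the last 4.

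Over all those tested, microexons were higher in set 2 about as often as other events. Their median difference was -0.0035 (n = 404), 192 were higher in set 2 (47.5%), and over all tested events 47.7% were. The median inclusion of the 404 was 0.759 and 0.710 in set 1 and 0.716, 0.715 and 0.736 in set 2, so the libraries of set 2 lay within the range of set 1. The median size of the difference was 0.0526, against 0.0301 for exons over 27 nt, and the median SD in set 2 was 0.0433, against 0.0340 for exons of 61 nt to under 300 nt. At inclusion of 0.1 to 0.9 the sizes were close, at 0.0722 for microexons, 0.0714 for exons of 28 to 60 nt and 0.0668 for exons of 61 nt to under 300 nt. There the SD of microexons was the lowest of the 3, at 0.0601 against 0.0650 and 0.0666. Of the 404, 131 (32.4%) had sets that did not overlap, 51 higher and 80 lower, against 28.5% of all events tested, 1042 higher and 1171 lower. Among exons of 28 to 60 nt the share was 32.7%, 180 higher and 201 lower.

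The authors' deposited table called more microexons at an FDR below 0.05: 83 of 718 (11.6%), 35 higher and 48 lower in set 2. Over all events it called 4.87%, 2.4% higher and 2.47% lower. Of the 404 tested events it called 71 (17.6%), against 12.6% of all 7754. At inclusion of 0.1 to 0.9, its share was 18.5% for microexons and 18.4% for exons of 28 to 60 nt. It called each of the 14 described above. Enah, an actin regulator of growth cones, was called in the authors' deposited table (FDR 0.0151) and not in limma (adjusted p = 0.161), with its 12-nt exon at 0.460 and 0.342 against 0.559, 0.555 and 0.613.

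By gene list, the calls of the fit were few. Over all 404 microexons tested the fit called 3.47%, 0.990% higher and 2.475% lower, and over all 7754 events 1.97%. Of 141 tested microexons of the known neuronal microexon genes, 5 were lower and 0 higher, with a median difference of -0.0077. Presynaptic genes had 2 lower of 37, and adhesion, actin and GTPase, microtubule, kinase and trafficking genes 1 lower of 38, 37, 46, 15 and 11. The lists of postsynaptic, channel, RNA-binding and chromatin genes had 0 of 15, 15, 9 and 10 called in limma. All 7 calls in listed genes were lower, while the 7 in genes of no list were 4 higher and 3 lower. None of the 14 calls held in every fit without 1 library, and no list was tested against the share over all microexons.

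In the same libraries other gene groups differed by coverage, the reads over the deepest event of a gene, scaled to the library's reads over all events of the table (RPM). Summed over 10 medium spiny neuron markers it was 4589 and 3800 in set 1 and 1673, 1752 and 1606 in set 2, with 9 of the 10 lower in every library of set 2, against 20.1% of all genes. All 16 interferon response genes were higher in every library of set 2, against 29.1% of all genes, with sums of 54.2 and 117 against 1951, 1777 and 1920. The sums of 8 microglia markers were 466 and 1035 against 1408, 1416 and 1385, with 5 higher, and those of 7 oligodendrocyte markers 2882 and 4018 against 5133, 3987 and 5033, with 6 higher. For 5 astrocyte markers they were 601 and 839 against 874, 973 and 894, with 2 higher, for 3 endothelial markers 1.20 to 1.39 against 4.43 to 4.98, with 3 higher, and for 4 neuron markers 3068 and 2707 against 3382, 2941 and 3395, with 2 higher and 2 lower. For Ttr and Clic6, markers of the choroid plexus, a secretory tissue of the ventricles, they were 204 and 4836 against 14.0 to 18.5, with 2 lower. Each library of set 1 was thus above set 2, and the second also stood apart from the first. No listed marker was at 0. The part of these in the microexon differences was not tested, and fewer cells of a type and less RNA per cell cannot be told apart in bulk tissue.

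The splicing regulators of microexons were measured the same way. Of 13, Srrm4 and Elavl4 were higher and Rbfox1 and Rbfox3 lower in every library of set 2, so 2 of 13 in each direction, against 29.1% of all genes higher and 20.1% lower. Srrm4 was at 3.70 and 3.82 RPM in set 1 and at 9.23, 12.1 and 8.61 in set 2, from 32 to 90 reads per library. Elavl4 was at 16.3 and 14.0 against 52.4, 45.9 and 48.9. Rbfox1 had 226 and 174 against 106, 105 and 117. Rbfox3 had 161 and 141 against 85.4, 92.7 and 83.1. The other 9, Srrm3, Srsf11, Rnps1, Ptbp1, Ptbp2, Nova1, Nova2, Rbfox2 and Qk, overlapped between the sets, with Srsf11 at 46.2 and 38.8 against 33.8, 41.8 and 45.2. No member lay in any of the 13 genes except a 20-nt exon of Srrm3 in the HSV table. It had 9 reads per library and inclusion levels of 0.227 and 0.000 against 0.201, 0.099 and 1.000, too few reads to be tested.

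In the dCas9-SET2 table, the authors called 23 microexons at an adjusted p below 0.05, of 340 with a value (6.76%), 15 with a higher and 8 with a lower inclusion in set 2. Over all events the authors' deposited table called 262 (4.96%), 2.23% higher and 2.72% lower. Of the 23, 21 were divisible by 3 (91.3%), as were 90.6% of the 340. The reads of runs 4 and 8 were identical in every event in both sets, so they were counted once, which left 15 distinct runs per set. The authors' deposited values hold both. Depth was low: the median microexon had 88.5 reads summed over the runs of set 1 and 60 over those of set 2. Runs of a sample name are not separate samples and the columns do not name them, so no test was made over runs. How the authors' adjusted p treats runs of a sample name is not stated, so it may count them as separate samples.

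Psap led by reads and by the authors' adjusted p. Its 9-nt exon (chromosome 10, 60297537 to 60297545, GRCm38) had 8754 reads in set 1 and 5000 in set 2. Inclusion in runs with 5 reads or more, as in all run values here, had a lowest, median and highest value of 0.254, 0.311 and 0.455 in set 1 and 0.369, 0.435 and 0.504 in set 2. The ranges overlapped, with the median of set 2 near the top of set 1. The summed reads gave 0.339 and 0.430, and the authors' deposited table a difference of 0.087 (adjusted p = 0.00219).

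The 20-nt exon of Rps24, a ribosomal protein gene with short alternative exons at its end, ranged over runs from 0.652 to 0.845 in set 1 and 0.701 to 0.880 in set 2, with medians of 0.755 and 0.806 (authors' deposited table: difference 0.075, adjusted p = 0.00919). Src, the tyrosine kinase whose neuronal form carries an extra microexon, had an 18-nt exon (chromosome 2, 157458843 to 157458860) at 0.541 from 256 reads in set 1 and 0.649 from 137 reads in set 2 (authors' deposited table: 0.164, adjusted p = 0.00760). These 2 and Psap were the only microexons below 0.01 in the authors' deposited table.

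Of 36 microexons of actin and small GTPase genes, the authors called 3 higher, in Enah, Arhgap21 and Myo5a, and 2 lower, in Arhgap12 and Diaph2. They called 6.76% of all microexons and 4.96% of all events, and the list was not tested against these shares. The 12-nt exon of Enah (chromosome 1, 181931174 to 181931185) had per-run values of 0.000, 0.263 and 0.527 (lowest, median, highest) in set 1 and 0.182, 0.471 and 0.728 in set 2. The summed reads gave 0.267 and 0.451, and the authors' deposited table a difference of 0.149 (adjusted p = 0.0309). Enah was 1 of 4 paired microexons that the authors called in both tables, and its inclusion was higher in set 2 in each. The other 3, Nnat, Tenm3 (27 nt) and Cacna1b, were higher in set 2 of the HSV table, by 0.094, 0.253 and 0.159, and lower in the authors' deposited differences of the dCas9-SET2 table, given below. How the sets of the tables correspond is not known. Arhgap21, a GTPase-activating protein of the Golgi and actin (21 nt), had summed levels of 0.136 from 50 reads and 0.360 from 37 reads (authors' deposited table: 0.274, adjusted p = 0.0467). Outside that list, the 3-nt exon of Clasp2 had a difference of 0.147 in the authors' deposited table (adjusted p = 0.0309). Its summed reads gave 0.694 and 0.710.

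The largest listed increases had few reads. The 25-nt exon of Cd47, the "do not eat me" ligand of the cell surface, had summed levels of 0.281 from 76 reads and 0.554 from 46 reads (authors' deposited table: 0.395, adjusted p = 0.0245). Cpeb4, a translational regulator whose microexon lies in its disordered region, had a 24-nt exon at 0.359 from 61 reads and 0.557 from 41 reads (authors' deposited table: 0.313, adjusted p = 0.0458). At 24 nt it is frame-preserving, whereas the exon of Cd47 is not. Runs with 5 reads or more numbered 6 and 3 for Cd47 and 7 and 4 for Cpeb4 in the 2 sets.

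Of the decreases, Nnat had the most reads. Its 27-nt exon (chromosome 2, 157561213 to 157561239) had per-run values of 0.108, 0.344 and 0.440 in set 1 and 0.080, 0.208 and 0.759 in set 2, which overlap widely, and summed levels of 0.298 and 0.241 (authors' deposited table: -0.114, adjusted p = 0.0430). Fnbp1, a membrane-curving protein of endocytosis, had a 15-nt exon at 0.610 from 112 reads and 0.443 from 69 reads (-0.239 and 0.0207). The 27-nt exon of Tenm3, a teneurin adhesion protein, had 0.791 from 93 reads and 0.702 from 68 reads (-0.232 and 0.0458). The values in parentheses are the difference and adjusted p of the authors' deposited table.

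For 2 of the 23 the summed reads went the other way. The 12-nt exon of Cacna1b, the N-type calcium channel, had a difference of -0.615 in the authors' deposited table, but 27 inclusion and 1 skipping reads in set 1 and 10 and 0 in set 2, levels of 0.960 and 1.000. The 24-nt exon of Uggt1, a folding sensor of the ER, had -0.297 there and summed levels of 0.759 and 0.837. The deposited differences were rebuilt by subtracting runs of the same position, with a run without a read of the event taken as inclusion 0. The run differences within 1 SD of their mean were then averaged. These steps together returned the deposited difference of 89.1% of microexons within 0.0001, and the part of each step was not tested. Cacna1b had no read in 2 runs of set 1 and 9 of set 2, and Uggt1 in 0 and 5. Of the 8 listed decreases, 7 had a run of set 2 with no read, against 1 of the 15 increases. Over all events of the table it was 92 of 144 decreases and 29 of 118 increases. The 8th, Nnat, had reads in every run. Cacna1b, with 28 and 10 reads, was named after its values were seen.

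**Figure D4:**
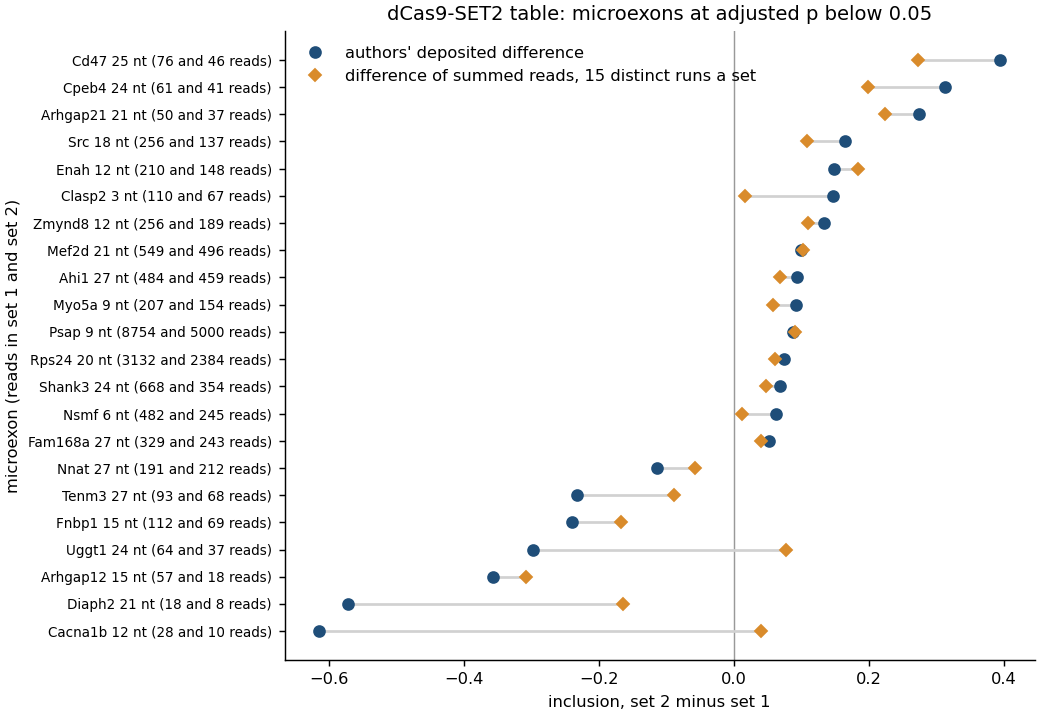
Difference in inclusion, set 2 minus set 1 (x axis), for the microexons named here that the authors called in the dCas9-SET2 table (y axis, with the reads of each set), as deposited (circles) and from reads summed over 15 distinct runs a set (diamonds). The diamonds lie on the other side of 0 from the circles for Cacna1b and Uggt1 only.

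The other 7 that the authors called higher were also higher in set 2 by summed reads: Mef2d, a transcription factor of activity-dependent genes (21 nt, 0.80 and 0.902), Zmynd8, a chromatin reader (12 nt, 0.390 and 0.501), Ahi1 (27 nt, 0.721 and 0.788), Myo5a, an organelle motor of dendrites (9 nt, 0.865 and 0.923), Shank3, a postsynaptic scaffold (24 nt, 0.896 and 0.944), Nsmf (6 nt, 0.919 and 0.931) and Fam168a (27 nt, 0.857 and 0.898). Each of these had a read in every run. Arhgap12, a GTPase-activating protein (15 nt, 0.456 and 0.148), and Diaph2, a formin that nucleates actin (21 nt, 0.743 and 0.579), had 18 and 8 reads in set 2. Mef2d, Zmynd8, Ahi1, Myo5a, Shank3, Nsmf, Fam168a, Arhgap12 and Diaph2 were added after their values were seen.

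Over all 305 microexons with 20 reads in each set, the summed levels showed a median difference of 0.0058, and 159 (52.1%) were higher in set 2, against 50.5% of all events. Of the 113 microexons of known neuronal microexon genes with a value, the authors called 9 higher and 2 lower, where they called 6.76% of all microexons and 4.96% of all events. The counts by function are small, and none was tested against these shares. Among them, actin and GTPase genes had 3 higher and 2 lower of 36, postsynaptic genes 2 higher of 8, kinases 2 higher of 13, RNA-binding genes 2 higher of 10, chromatin genes 2 higher of 8, microtubule genes 1 higher of 26, channels 1 lower of 20 and adhesion genes 2 lower of 44. Presynaptic genes had 0 of 25 and trafficking genes 0 of 8.

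Exons could be set side by side between the tables by gene and length, where each table had a single exon of that length in the gene. This paired 281 exons, 82.9% of those in the dCas9-SET2 table and 45.0% of those in the HSV table, of which 239 had 20 reads in both. Across these exons, which share genes and tissue and are not independent, Pearson's r of mean inclusion was 0.905 and Spearman's rho 0.910. Inclusion was lower in the dCas9-SET2 table for 161 of them (67.4%), with a median difference of -0.035. Psap was at 0.607 in the HSV table and 0.384 in the dCas9-SET2 table, the largest gap among the 8 paired exons with the most reads. The others were Ap2m1 (0.987 and 0.953), Sptan1 (0.992 and 0.985), Cltc (0.174 and 0.134), the 24-nt exon of Kif1a (0.217 and 0.255), the 18-nt exon of Mapk8ip3 (0.874 and 0.882), Kif1b (0.006 and 0.008) and the 15-nt exon of Sh3glb2 (0.902 and 0.884).

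A total of 24 paired exons differed by 0.2 or more. The farthest apart were a 15-nt exon of Eef1d, a translation elongation factor subunit (0.081 and 0.987), a 27-nt exon of Tpd52, a vesicle trafficking protein (0.880 and 0.091), and a 12-nt exon of Sh3glb2 (0.882 and 0.221), chosen after their values were seen. Another event of that Sh3glb2 exon in the HSV table, with a different downstream neighbour, stood at 0.416. A pair can differ in the neighbouring exons of its event. Among the deepest microexons of known genes in the dCas9-SET2 table, the summed reads put the 12-nt exon of Nrcam, an adhesion protein of the axon, at 0.244 in set 1 and 0.230 in set 2. The deepest 27-nt exon of Kif1a stood at 0.744 and 0.723 (adjusted p = 0.1 in the authors' deposited table).

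**Figure D5:**
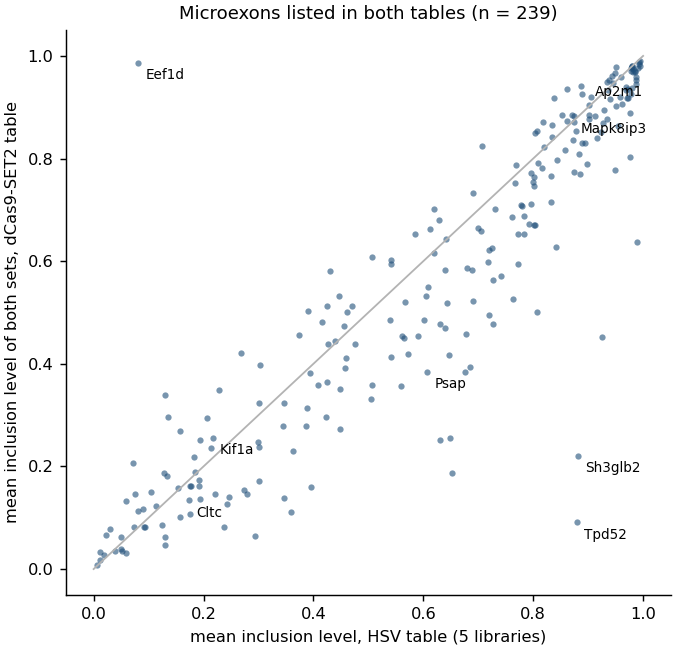
Mean inclusion level in the dCas9-SET2 table (y axis, mean of both sets) against that in the HSV table (x axis, mean of 5 libraries) for the 239 microexons listed in both with 20 reads or more, 1 point per exon, with the line of equal values. Most points lie near or below the line, and Eef1d, Tpd52 and the 12-nt exon of Sh3glb2 lie far from it.

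Depth in the HSV table was 7428974 to 8638249 reads per library over all events, of which microexon events took 1.18% to 1.23%. A microexon had a median of 63.5 reads per library, and other events 103. Runs of the dCas9-SET2 table held 79799 to 106251 reads in set 1 and 56946 to 84870 in set 2.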

How the data were processed

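The microexons and all lists were chosen with earlier results of these data known. STAR 2.4.1d and Bowtie2, and the builds mm9 and mm10, are named with no role per the submitters' processing notes. For the event caller, nothing is stated in the labels. The 5 libraries of the HSV table and 32 runs of the dCas9-SET2 table are values with no sample name. Read counts, as deposited, are joined in 1 cell per set, so no count model was fitted. The authors' inclusion level is inclusion reads over exon length plus 150 (HSV) or 99 (dCas9-SET2), against skipping reads over 150 or 99, which returned 100% of deposited levels within 0.001. For microexons this divides inclusion by 1.02 to 1.18 and 1.03 to 1.27. An exon this short is read through reads that cross its junctions, so alignment affects its level, which was not tested. The p-value and FDR (HSV) and padj (dCas9-SET2) are the authors' deposited values. The authors' score for the difference was printed as set 2 minus set 1 throughout.

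Logit inclusion levels of the HSV table, after adding 0.5 to both counts, were modelled in R 4.3.3 using limma 3.58.1. Weights came from the reads, the spread was trended on depth and the two-sided Benjamini-Hochberg threshold was 0.05. A check on simulated data gave every event the same spread between libraries. It cannot show how the fit treats events whose libraries lie far apart. In the fits without a library of set 1, the lone library is assumed to vary like those of set 2. HSV coordinates are as deposited: 15.1% of microexons fell within their own gene's coordinates in GRCm38, against 100% in the dCas9-SET2 table, so the build is not stated here and coordinates were not compared. Microexons were named where they were called in the fit (up to 12 a direction), among the 10 deepest, the 6 largest authors' differences a direction with 20 reads a set, the deepest of the known neuronal microexon list (10 and 6), the 8 deepest paired exons, the 5 shortest, or in a microexon regulator gene. RefSeq promoter windows held no microexon, so no sequence is printed. A microexon the rule names is not reported here.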

Additional observations from a re-analysis of the deposited data

How the results depend on the processing

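Of the HSV microexons 14 were called, and 12 to 14 with a shared spread, other read filters (10 and 5, or 50 and 20) or 1 event per exon. Without precision weights 0 were called (46 at unadjusted p below 0.05, limma), with a variance between libraries added to the weights 0 (58), with 0.1 added to each count 0 (60), and with 1 read of each form as the filter 1. Over all 7754 events the first 3 of these fits called 0, 1 and 38, against 153 in the main fit. The last called 32 of 27900 events. Leaving out 1 library gave 0 to 11, 0 of them without the last library of set 2 (70 at unadjusted p below 0.05, limma). No call changed sign in these fits. The authors' 83 HSV calls became 57 at FDR 0.01 and 71 within the filter. Their 23 dCas9-SET2 calls became 3 at 0.01, 15 with a difference of 0.1 or more and 20 with 20 reads in each set. From summed reads, chosen after seeing the data, Cacna1b became 0.040 and Uggt1 0.078. The share divisible by 3 was 80.4% (HSV) and 90.0% (dCas9-SET2), and 89.3% and 94.6% at 15 nt or less. The share at inclusion of 0.1 to 0.9 was 48.2% and 72.1%, against 53.1% and 65.6% at 15 nt or less and 53.2% in HSV with no read filter, and 47.1% to 48.6% without single libraries. The cause was not tested for any of these. No paired analysis was possible because the columns carry no replicate numbers. Groups of 2 and 3 libraries and about 60 to 100 reads per event limit what can be called.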
